A study of Arabidopsis thaliana with 8 samples.

Results

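The genes described here encode arabinogalactan proteins (AGP) and fasciclin-like arabinogalactan proteins (FLA) of Arabidopsis thaliana. They were chosen as all nuclear protein-coding genes with a symbol or synonym of AGP or FLA followed by a number, which gave 50 of 27444 genes, 30 AGP and 20 FLA. FLA8 also carries the name AGP8 and was counted as FLA. Arabinogalactan proteins are secreted proteins rich in proline, alanine, serine and threonine, whose prolines are hydroxylated and carry large arabinose and galactose chains. Many are held at the outer face of the plasma membrane by a lipid anchor, and in roots the class is known for roles in cell expansion, root hairs and salt tolerance. Fasciclin-like members add fasciclin domains, which are known from animal adhesion proteins.

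The study mapped where ARR12 sits on chromatin. ARR12 is a B-type response regulator, a transcription factor that is switched on by phosphate passed down from cytokinin receptors. Anti-GFP ChIP-seq was made on root meristems taken at a seedling age of 3 days, after growth at 22 °C. Plants of the ARR12-GFP genotype and control plants, all of the Col-0 ecotype, gave 2 immunoprecipitated libraries each, from independent biological replicates. The control is named Col-0 in the series' design text and GFP in the sample titles, and it is called Col-0 here. The labels do not state the promoter of the fusion or whether its plants also carried an untagged ARR12. The files list 1 summit per called peak: 8137 and 5492 on the nuclear chromosomes in ARR12-GFP replicates 1 and 2, and 199 and 251 in Col-0 replicates 1 and 2. Read depth is unknown from them. Summit lists hold no transcript levels, so the tissue label could not be checked against marker genes.

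A gene was counted as near a summit when it held the summit or had it within 1500 bp of either end. A reproducible site needed summits of both ARR12-GFP libraries linked within 200 bp and no Col-0 summit within 200 bp. The families were selected on their counts of genes with summits in these same lists, so counts and scores are a description and carry no test.

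Reproducible ARR12 sites lay at 21 of the 50 genes (42.0%), against 14.0% of all nuclear protein-coding genes. In ARR12-GFP replicate 1, 30 of the 50 (60.0%) were near a summit, where 28.1% of all genes were. In replicate 2 the count was 24 of 50 (48.0%), where 19.6% of all genes were. Over both libraries the share of the 50 genes was 54.0% ± 8.49 (SD, n = 2), and that of all genes 23.9% ± 6.01 (SD, n = 2). The members' share was thus the higher one in each library taken alone.

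None of the 50 genes was near a summit of Col-0 replicate 1 or of Col-0 replicate 2. By the approximation that a count of 0 allows 3 genes at 95% confidence, 0 of 50 allows a share of up to 6%. In all genes the shares were 0.503% and 0.590%, so these libraries could not show a difference at the members. The Col-0 summit closest to any member lay 8080 bp from FLA15.

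AGP and FLA genes did not stand clearly apart from each other. Of the AGP genes, 14 of 30 (46.7%) had a reproducible site, and of the FLA genes 7 of 20 (35.0%). Near a summit of replicate 1 were 19 AGP genes (63.3%) and 11 FLA genes (55.0%), and near one of replicate 2 were 15 (50%) and 9 (45%). Within a library the families differed by 8.33 percentage points in replicate 1 and 5.00 in replicate 2. The ARR12-GFP libraries themselves differed by 13.3 points for AGP and 10 for FLA. All genes shared that shift (28.1% in replicate 1, 19.6% in replicate 2), so it does not measure the spread of the family difference. With only 30 and 20 genes, the family difference rests on few genes. Of 15 alternative settings, those that changed only the Col-0 filter could not alter the order, as no Col-0 summit lay near a member. AGP had the higher share under 13 of the 15, and the order turned under the others. It was 33.3% of AGP and 35.0% of FLA genes when summits had to lie within 100 bp of each other. When a site had to lie inside the gene it was 16.7% and 20.0%.

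**Figure D1:**
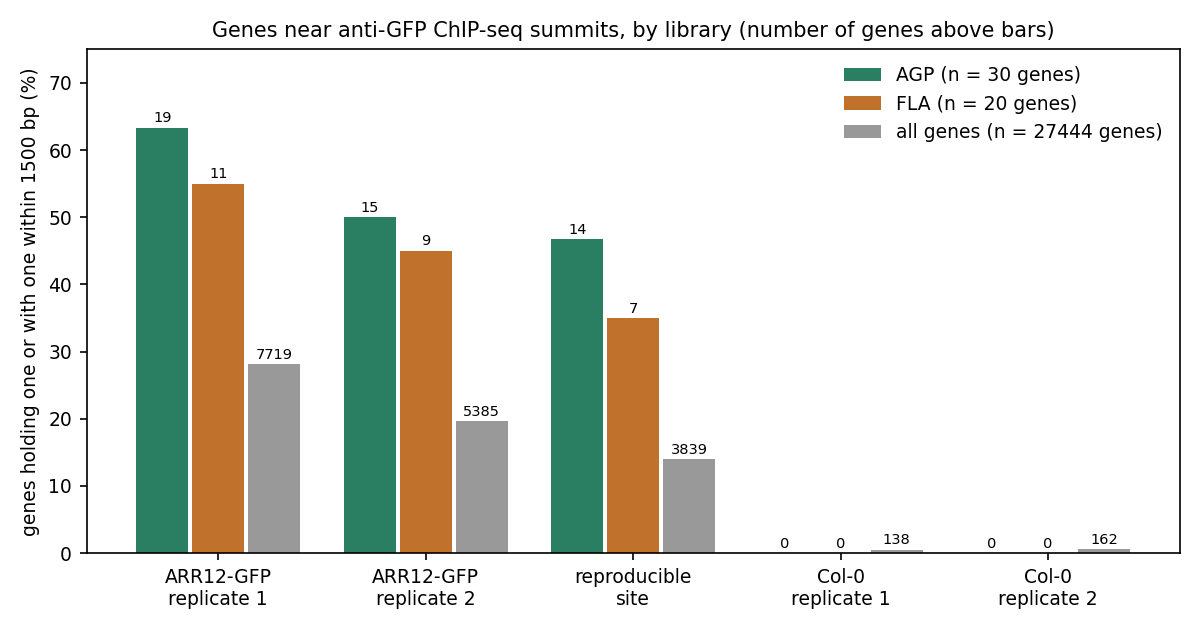
Share of AGP genes, FLA genes and all nuclear protein-coding genes (vertical axis, percent) that hold, or have within 1500 bp, a summit of each library or a reproducible site, with the number of genes above each bar. AGP and FLA bars lie above the bar of all genes in both ARR12-GFP libraries, and no AGP or FLA gene was near a Col-0 summit.

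The 21 genes had 26 reproducible sites. Each summit has a score given by the authors' peak caller on a −log10 scale, which ranks summits within its own library. Percentiles below are ranks in the list of that library. The best site of a member had a median percentile, averaged over both libraries, of 83.0, against 63.1 over all 3839 genes with a site. A best of several sites tends to rank higher, and 23.8% of these members had more than 1, against 15.0% of all genes with a site. The part of this in the percentiles was not tested. The 26 sites kept much of their order between the libraries (Spearman's rho 0.71 over 26 sites, 0.63 over all 3503 reproducible sites). A site needed a summit in both lists, so these values are a description only. Replicate 1 gave the higher score at 22 of the 26 sites (84.6%), as it did at 85.9% of all reproducible sites. The closest Col-0 summit to any of them was 10758 bp away.

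Sites lay inside the gene in 11 cases and outside it in 15, at 45 to 1227 bp with a median of 571 bp. Of the 21 genes, 9 (42.9%) held a site inside, against 25.2% of all genes with a site. Of the 11 inside sites, 9 (81.8%) lay within 250 bp of the nearer gene end. Over all genes the share was 59.6% of 1041 inside sites. The median length was 1032 bp for all members and 2078 bp for all genes, with or without an inside site. Of the 9 members with an inside site, only AGP12 (810 bp) and AGP20 (984 bp) were shorter than the members' median. Only FLA18 (2857 bp) and FLA17 (3292 bp) were longer than the median of all genes. More of a short gene lies within 250 bp of its ends, and the part of length in the difference between these shares was not tested. The gene table used gives no strand, so it is not known which of these ends is the 5′ one. More than 1 site was found at 5 of the 21 genes (23.8%), against 15.0% of all genes with a site. They were 2 of 14 AGP genes (14.3%), AGP16 and AGP20, and 3 of 7 FLA genes (42.9%), FLA2, FLA4 and FLA18, so the AGP share was near that of all genes. A site inside the gene was held by 5 of the 14 AGP genes (35.7%) and 4 of the 7 FLA genes (57.1%). The median mean percentile of the best site was 71.8 for AGP and 85.9 for FLA genes.

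**Figure D2:**
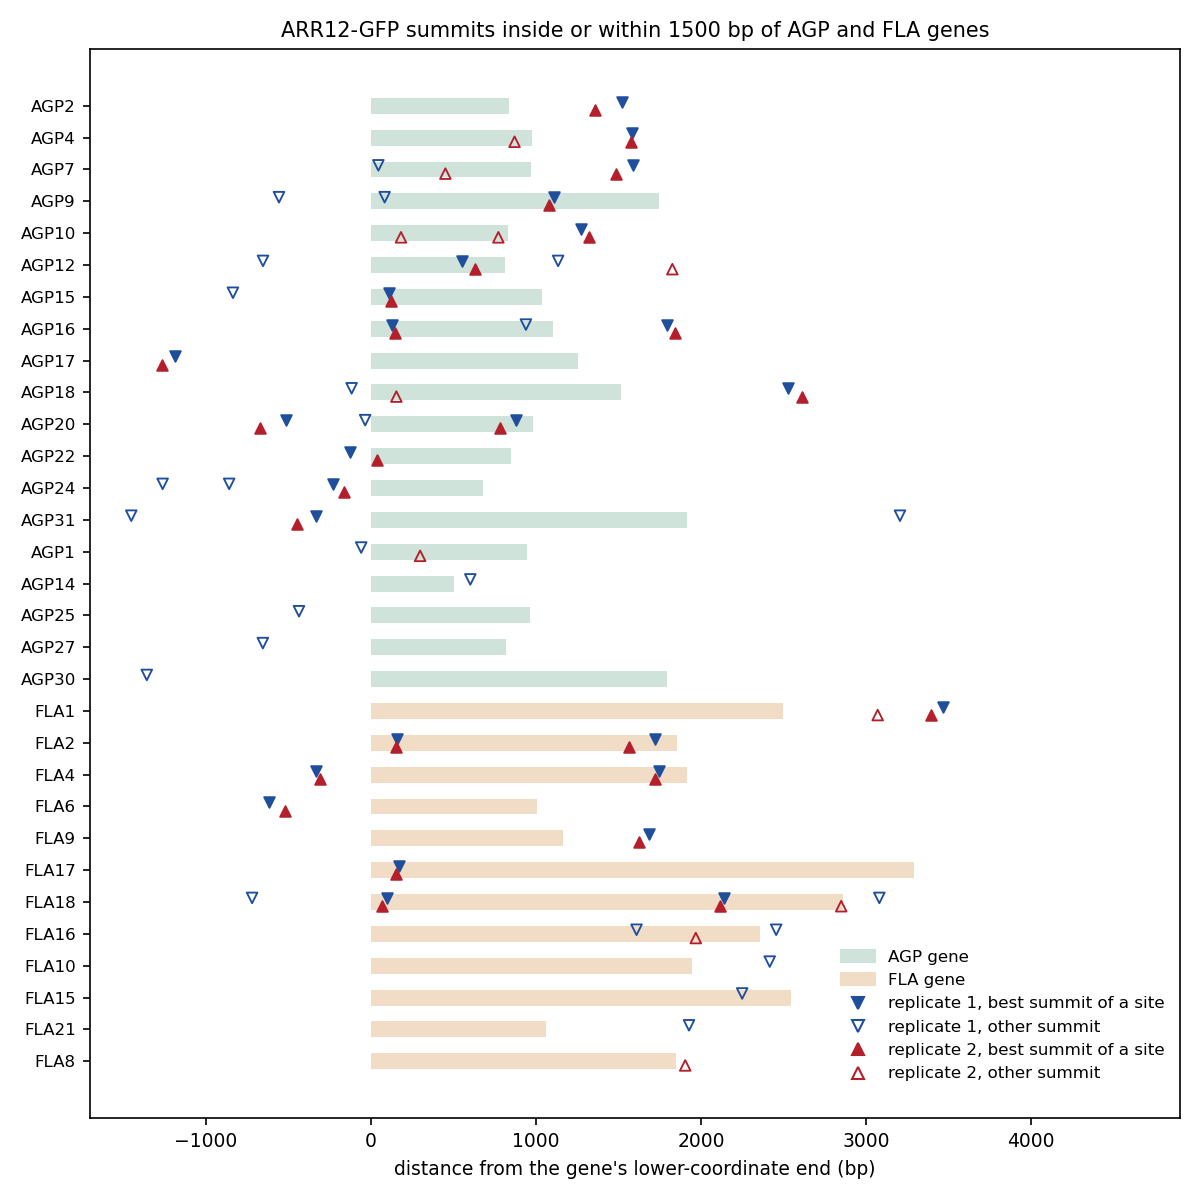
ARR12-GFP summits at the 31 AGP and FLA genes with any summit, as the distance in bp from the lower-coordinate end of the gene, whose body is the shaded bar. Filled markers are the best summits of a reproducible site, open markers are other summits, blue stands for replicate 1 and red for replicate 2. Paired filled markers lie mostly just inside a gene end or some distance outside it.

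Among the classical AGP genes, which encode a proline-rich backbone with a membrane anchor, 5 of 13 (38.5%) had a site: AGP2, AGP4, AGP7, AGP9 and AGP10. AGP9 (AT2G14890) held the strongest site of all AGP genes, at position 6400496 of chromosome 2 in TAIR10, with scores of 50.3 in replicate 1 and 26.9 in replicate 2. This site was in the top 5% of both lists, with percentiles of 96.9 and 96.1. It lay 653 bp inside the nearer gene end, deeper than most inside sites of the family.

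The site of AGP7 (AT5G65390), at 26130118 of chromosome 5 and 571 bp from the gene, scored 35.3 and 16.0. AGP4 (AT5G10430), known as JAGGER for its role in keeping further pollen tubes out of a fertilised ovule, had one at a distance of 604 bp, at 3279065 of chromosome 5, which scored 31.5 and 11.7. AGP2 (AT2G22470) had its site at 604 bp as well, at 9539567 of chromosome 2, where the libraries scored 30.8 and 13.9. These 3 genes thus had like scores at like distances, and the 165 bp between the AGP2 summits of the libraries was the widest separation of any member site. AGP10 (AT4G09030) had a weaker site at 466 bp that scored 16.6 and 7.49.

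The lysine-rich AGP genes, whose proteins carry a short basic stretch, had a site at 2 of 3. AGP17 (AT2G23130), known from a mutant whose roots resist transformation by Agrobacterium, had its site at a distance of 1227 bp, at 9842907 of chromosome 2, scoring 31.0 and 17.1. AGP18 (AT4G37450), known for a role in female gamete formation, had one at 1058 bp, at 17608108 of chromosome 4, scoring 13.5 and 8.42. Both sites were nearer to another gene, AT2G23120 at 273 bp and SRFR1 at 270 bp. AGP19 (AT1G68725), known for effects on growth of many organs, had no summit within 20624 bp in either library.

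AG peptides are very short arabinogalactan proteins, and 6 of their 12 genes (50%) had a site. AGP15 (AT5G11740) held a site 115 bp inside a gene end, at 3784045 of chromosome 5, that scored 45.1 and 21.9 with only 7 bp between the summits of the libraries. AGP16 (AT2G46330) had a site inside, with scores of 13.2 and 13.8, and a higher one at a distance of 718 bp, at 19020082 of chromosome 2, that scored 39.6 and 21.1. These 2 genes had the highest sites of the class.

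AGP20 (AT3G61640) had a site inside with scores of 14.6 and 8.03 and another at 592 bp with scores of 7.41 and 9.64. AGP12 (AT3G13520) held 1 site that ranked differently in the libraries, with scores of 5.92 and 14.3 at percentiles of 20.0 and 82.0. AGP22 (AT5G53250) went the other way, with scores of 22.2 and 3.26 at percentiles of 82.2 and 2.93. AGP24 (AT5G40730) had the site with the lowest mean percentile of any member site, 16.4, with scores of 6.74 and 3.59. In this class the sites therefore ran from above the 90th percentile of both lists to below the 10th of replicate 2. AGP14 (AT5G56540), known for a role in root hair length, had a replicate 1 summit of score 5.92 at 102 bp, whereas replicate 2 had none within 2872 bp of it. AGP21 (AT1G55330), known for a role in root hair cell fate, had a reproducible site only beyond the searched distance, at 2670 bp.

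The chimeric members join an arabinogalactan region to another domain. AGP31 (AT1G28290), a wall protein known from vascular tissue, had a site at 391 bp, at 9888710 of chromosome 1, that scored 9.87 and 5.19, below the median of either list. AGP30 (AT2G33790), known as a root AGP with roles in germination and root regeneration, had a replicate 1 summit of score 20.99 at 1358 bp, while the closest one of replicate 2 was at 31746 bp. AGP30 thus had the highest-scoring summit of any member that lacked a site.

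**Figure D3:**
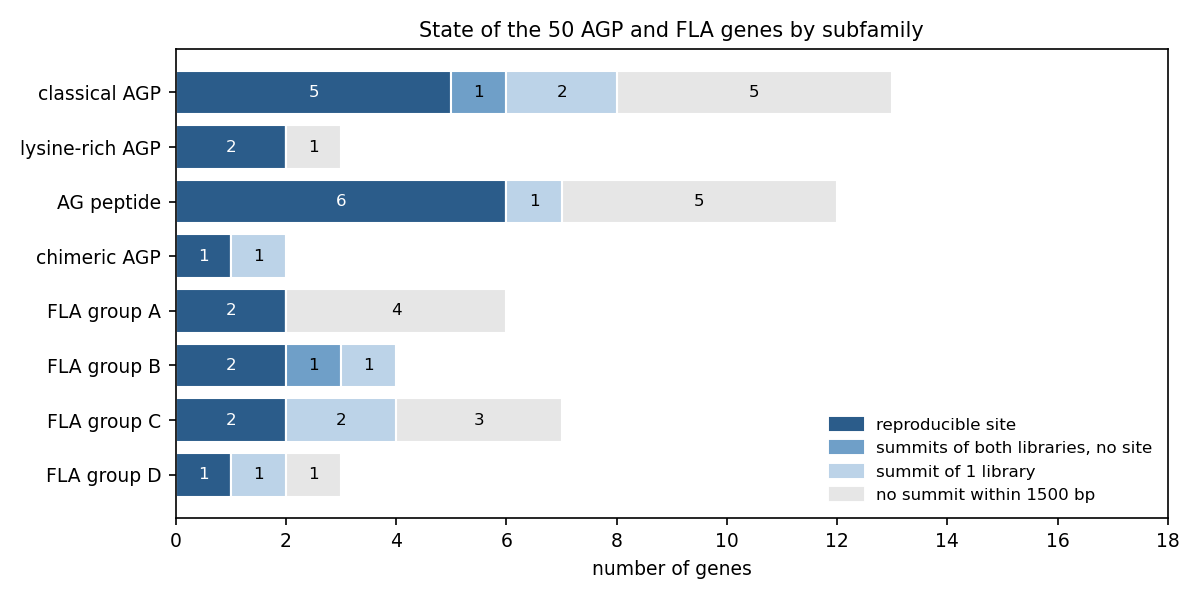
Number of genes (horizontal axis) in each subfamily by what was found within 1500 bp: a reproducible site, summits of both libraries that did not form a site, a summit of 1 library, or none. Every subfamily has at least 1 gene with a site, from 1 of 2 chimeric AGP genes and 1 of 3 FLA group D genes to 6 of 12 AG peptide genes.

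FLA genes are divided in the literature into groups A to D by the likeness of their fasciclin domains. Group C, to which FLA1 and FLA2 belong, had sites at 2 of 7 genes. FLA2 (AT4G12730) held the highest site of any member, at 7491381 of chromosome 4, scoring 73.8 and 26.5 at percentiles of 99.0 and 95.8. The summits of the libraries lay 1 bp apart there, 154 bp inside a gene end. A second FLA2 site near the other end was weak, with scores of 7.68 and 3.24. FLA1 (AT5G55730), known for a role in shoot regeneration from cultured root tissue, had a site at 931 bp that scored 13.5 and 6.32 and lay nearer to CRR21, at 377 bp. FLA8 (AT2G45470) had only a replicate 2 summit of score 3.57 at 59 bp, and FLA10 (AT3G60900) only a replicate 1 summit of score 7.67 at 469 bp.

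Group B had sites at 2 of 4 genes, and its other genes had summits too. FLA18 (AT3G11700) held 2 sites, at 3698739 of chromosome 3, 81 bp inside a gene end and scoring 35.2 and 27.1, and at 3700782, scoring 14.6 and 12.7. FLA17 (AT5G06390) held a site 161 bp inside a gene end, at 1952666 of chromosome 5, that scored 18.5 in replicate 1 and 18.8 in replicate 2. All 3 sites had only 21 to 28 bp between the libraries' summits. FLA16 (AT2G35860), known for a role in stem secondary walls, had summits of both libraries inside the gene, but 359 bp apart. FLA15 (AT3G52370) held a replicate 1 summit of score 9.87, with the closest replicate 2 summit at 2235 bp.

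Group A had sites at 2 of 6 genes. FLA9 (AT1G03870) had one at 491 bp, at 984035 of chromosome 1, that scored 34.6 and 18.6, in the top 15% of both lists, and no other gene was in reach of it. FLA6 (AT2G20520) had one at 571 bp that scored 13.3 and 6.95 and lay nearer to AT2G20515, at 129 bp. FLA11 (AT5G03170) and FLA12 (AT5G60490), best known from lignified secondary walls of stems, had no summit of either library in reach, the nearest lying 4643 bp from FLA11 and 6770 bp from FLA12.

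In group D, FLA4 (AT3G46550, listed as SOS5) had 2 sites. FLA4 is known from a mutant whose root cells swell under salt stress. The higher site was 323 bp from the gene, at 17136023 of chromosome 3 and inside the neighbouring gene AT3G46540, with scores of 36.1 and 13.3. The other lay 179 bp inside a gene end at 17138080, with scores of 17.3 and 12.0. Both were thus above the 70th percentile of both lists. FLA21 (AT5G06920) had a replicate 1 summit of score 11.1 at 866 bp and no replicate 2 summit within 9518 bp.

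**Figure D4:**
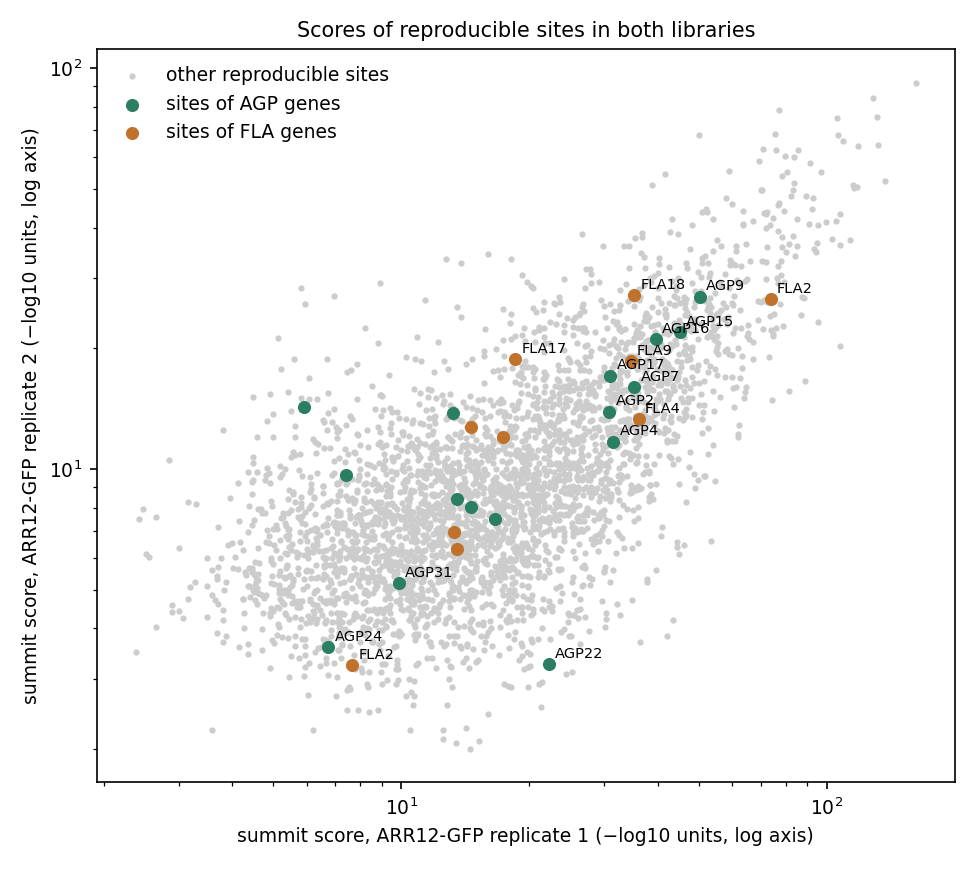
Scores of the reproducible sites in replicate 1 (horizontal) and replicate 2 (vertical), both in −log10 units on log axes, with the 26 sites of AGP and FLA genes in colour and all others in grey. The member sites run from FLA2, AGP9, AGP15 and FLA18 near the upper end to AGP24 and the weaker FLA2 site near the lower end, and AGP22 stands out by a high score in replicate 1 with a low one in replicate 2.

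The other 29 genes had no site. AGP1 and FLA16 had summits of both libraries that were too far apart, at 357 and 359 bp, 8 genes had a summit of 1 library, and 19 had none within 1500 bp. Of the 8, 7 had a summit of replicate 1 and 1 (FLA8) of replicate 2, and the highest scores were 20.99 at AGP30, 11.1 at FLA21 and 9.87 at FLA15. Just inside the searched distance lay AGP17 at 1227 bp and AGP18 at 1058 bp. Just outside it lay FLA15, AGP21 and AGP14, with reproducible sites at 2239, 2670 and 2841 bp.

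Many of the sites could belong to another gene. Of the 26, 18 (69.2%) were also within 1500 bp of a gene outside the families, and at 5 of them a neighbour was nearer than the member. Of all sites that had a gene in reach, 45.2% had more than 1. These shares are not like for like. The 26 were found through given genes, which favours sites with several genes in reach, so no excess at the members can be read from them. The inside site of AGP16 also lay inside AT2G46320, which overlaps it. When each site was given to its nearest gene, 17 of the 50 genes (34.0%) kept one, against 9.50% of all genes.

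The AGP genes are short, which makes the region searched around them short. Their median length was 858 bp and that of the FLA genes 1555 bp, against 2078 bp for all genes. In the shortest quartile of all genes, up to 1323 bp, 10.2% had a site, and 13 of the 35 members in that quartile did. The gaps to both neighbouring genes summed to a median of 2307 bp for members and 1857 bp for all genes. In the quartile with the narrowest gaps 7.86% of all genes and 1 of 10 members had a site. In quartile 2 it was 13.9% and 7 of 13, in quartile 3 16.9% and 8 of 17, and in the widest 17.4% and 5 of 10. Those 5 were 5 of 6 AGP genes and 0 of 4 FLA genes. AGP genes with a site had a median summed gap of 3219 bp and those without one 1107 bp, while for FLA genes the order was opposite, at 1625 and 3050 bp. The part of these gaps in the counts was not tested.

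Genes that build or work beside arabinogalactan proteins were counted the same way. Of 22 names of enzymes that hydroxylate prolines or add and link the sugars, 12 were matched in the gene table, and 4 of these (33.3%) had a site, against 14.0% of all genes. GLCAT14B (AT5G15050), a glucuronosyltransferase gene, had one at 139 bp, scoring 26.1 and 14.8. FUT4 (AT2G15390), a fucosyltransferase gene, had one at 167 bp, scoring 17.4 and 5.85, and GALT31A (AT1G32930), a galactosyltransferase gene, one at 800 bp with scores of 16.6 and 9.51. P4H5 (AT2G17720), a prolyl 4-hydroxylase gene, held one with scores of 7.50 and 6.83. These 4 genes had scores below those of the highest member sites. The matched genes without a site were P4H2, P4H13, GALT2, GALT29A, FUT6, GLCAT14A, GLCAT14C and RAY1, so each kind of enzyme named also had genes without one.

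FEI1 and FEI2, receptor-like kinases known to act in a pathway with SOS5, had no summit of either ARR12-GFP library in reach. Among extensins, leucine-rich repeat extensins and proline-rich proteins, which are other wall glycoproteins, 2 of 14 genes (14.3%) had a site, the same share as all genes to within a percentage point. They were LRX2 (AT1G62440) at 293 bp with scores of 26.1 and 22.5, and LRX3 (AT4G13340) at 899 bp with scores of 10.5 and 4.19. Of 11 genes of the COBRA family, anchored proteins of wall assembly, none had a reproducible site, 1 was near a summit of replicate 1, where 28.1% of all genes were, and none near one of replicate 2, where 19.6% were. By the same approximation, which runs high for few genes, a count of 0 of 11 allows a share of up to 27.3%, so it shows no difference from all genes.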

How the data were processed

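Root meristem chromatin was precipitated with an anti-GFP antibody after seedlings had been stratified for 5 days and grown for 3 days, per the labels' protocols. The submitters' processing notes name FastQC 0.11.2, Bowtie 1.1.1, SAMtools, MACS2 2.1.0 and the build TAIR10, without peak settings. The authors deposited 1 list of 1-base summits per library with a score on a −log10 scale, of a p- or q-value (not stated which). The number of summits depends on depth and input, which the lists do not give, and the 4 inputs were not used here.

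ARR12-GFP summits at most 200 bp apart were chained, and chains with summits of both libraries gave 3574 sites, each placed midway between the best summit of each library. Removing 71 within 200 bp of a Col-0 summit left 3503. Genes came from the RefSeq table of TAIR10.1, used for names and distances. As a check of its fit to the TAIR10 summits, 29.2% of replicate 1 summits lay inside genes, and 57.9% and 57.4% after moves of -2000 and 2000 bp. No sequences were used.

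The members, lists and subfamilies were chosen with earlier results of these data known, and subfamilies follow general knowledge of the family. From the wall glycoprotein list 3 splicing factors with PRP names were left out. All genes with a site, and a fixed set of members with known roles, are named. AGP1, AGP14, AGP21, FLA10 and the pollen genes were named after their values were seen. Planned descriptions of proteins and promoter motifs were not made. No test was made. The code was tested on simulated lists: in 5 runs, 1998 of 2000 placed positions were linked. Counting used pandas 2.3.3 with NumPy 2.4.6 under Python 3.11.15, rank correlation SciPy 1.17.1, and plots matplotlib 3.10.9.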

Additional observations from a re-analysis of the deposited data

How the results depend on the processing

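The number of members with a reproducible site stayed within 1.5 times the 21 reported under 13 of 14 alternatives, and the members' share was 2.16 to 5.11 times that of all genes under these 14. With only sites inside the gene it was 9 of 50 (18%, against 3.52% of all genes). Settings among the 14 that changed only the Col-0 filter, or left out a Col-0 library, had to return 21 genes. The closest Col-0 summit to any member lay 8080 bp away. Without ARR12-GFP replicate 1 the count was 24 of 50 (48.0%, against 19.4% of all genes). Without replicate 2 it was 30 of 50 (60.0%, against 27.8%). The share of AGP genes minus that of FLA genes, 11.7 percentage points as reported, was -1.67 points with summits linked within 100 bp and -3.33 with only sites inside the gene. It was 5.00 without ARR12-GFP replicate 1, 8.33 without replicate 2, and 8.32 with FLA8 counted as AGP, a setting chosen after seeing the data. Leaving out a Col-0 library could only return 11.7. The cause of these turns was not tested. No paired analysis was possible because the results come from no test, and the counts of each library are given side by side instead. Depth limits what can be said of the 19 genes without a summit: a weaker peak may have been missed in lists whose lowest scores were 2.09 in replicate 1 and 2 in replicate 2.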

Other observations

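Members best known from pollen, chosen after their values were seen, had no ARR12-GFP summit in reach: 0 of 6 genes in either library. They were AGP6, AGP11, AGP23, AGP40, FLA3 and FLA14, with the closest summit of replicate 1 at distances of 4901, 6098, 9291, 8978, 16132 and 5422 bp in that order. In all genes 28.1% were near a summit of replicate 1 and 19.6% near one of replicate 2. By the approximation used above, which runs high for so few genes, 0 of 6 allows a share of up to 50%. The count thus shows no difference from all genes.

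Some member sites were also in reach of genes with known roles of their own, of which 3 are given, picked after the neighbours were seen. The AGP4 site lay 1422 bp from CYCD4;2, a D-type cyclin gene, the inside site of AGP20 lay 1210 bp from TUBG1, a gamma-tubulin gene, and the AGP24 site lay 970 bp from AUG6, which encodes an augmin subunit. In each of these 3 cases the AGP gene was the nearer one.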
